A study of Mus musculus with 12 samples.

Results

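The mechanotransduction channel and tip link genes are the 10 genes Tmc1, Tmc2, Tmie, Lhfpl5, Cib2, Cib3, Pcdh15, Cdh23, Tomt and Loxhd1, taken as a list of gene names with no threshold on measured values. All 10 were found by GENCODE gene name among the 55416 genes counted. They were compared between inner hair cells (IHCs) and outer hair cells (OHCs) of the mouse organ of Corti at postnatal day 0 (P0), with 6 RNA-seq libraries per cell type. The labels call every sample WT, but the methods describe reporter alleles in the pups. These were an Atoh1-GFP allele, an allele carrying GFP and Cre at the Insm1 locus, and a tdTomato reporter at Rosa26 that Cre switches on. IHCs were sorted as cells with GFP alone, and OHCs as cells with GFP and tdTomato. The OHC gate therefore rests on Insm1, itself an OHC gene. Each library was made from cells pooled from several pups of both sexes, so the spread between libraries is one between pools.

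Hair cells turn sound into current at the tips of their stereocilia, where a filament called the tip link pulls on a cation channel. CDH23 forms the upper end of the tip link and PCDH15 the lower end, next to the channel. TMC1 and TMC2 form the pore, TMIE, LHFPL5, CIB2 and CIB3 are accessory subunits, TOMT is needed for TMC proteins to reach the bundle, and LOXHD1 is a stereocilia protein needed for lasting transduction. In the cochlea, Tmc2 is known as an early gene that declines after birth, while Tmc1 persists in mature hair cells.

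Counts on genes ran from 29564827 to 44017309 per library. Expression is given as CPM, counts scaled to a common library size with TMM factors, as mean ± SD over 6 libraries (n = 6) unless stated. IHC replicate 1 stood apart, with a TMM factor of 0.4863 against 0.9018 to 1.226 in the other 11 libraries, and OHC replicate 5 stood apart for several of the genes described here. Markers of both cell types followed the labels, with 1 exception. All 4 IHC markers (Otof, Slc17a8, Fgf8, Tbx2) were higher in IHCs, and 3 of 4 OHC markers (Insm1, Bcl11b, Neurod6) were higher in OHCs, of which Insm1 is no check because the sort used it. The 8 general hair cell markers summed to 4294 to 5849 CPM in IHCs against 3981 to 5135 CPM in OHCs, with Myo6 the largest part. Of these, Espn (quasi-likelihood adjusted p = 0.000907) and Gfi1 (adjusted p = 0.0106) were higher in IHCs, 6 were not called, and the list median log2 fold change was -0.65. Ikzf2, the remaining OHC marker, had 8.89 CPM in IHCs against 6.75 CPM in OHCs (quasi-likelihood adjusted p = 0.84).

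Of the 10 genes, Pcdh15 was enriched in OHCs, Tmie was enriched in IHCs, 7 did not pass the test, and Cib3 had too few counts to be tested. The test was edgeR's quasi-likelihood test over 13269 genes with Benjamini-Hochberg adjustment, called at an adjusted p-value under 0.05. Across all genes tested, 3.81% were called higher in IHCs, 2.44% higher in OHCs and 6.26% in either direction. Fold changes are given as OHC over IHC on the log2 scale, so that negative values mark genes higher in IHCs. Among the 9 genes tested, 7 had a negative fold change and 2 a positive one, but 5 of the negative signs turned (all but Tmc1 and Tmie) when library sizes were set by 4 hair cell genes (Myo6, Myo7a, Pou4f3, Espn), which moved the median of all genes tested to 0.43. Of those 5 genes, 4 stayed below the shifted median, and Espn, 1 of the genes used for this scaling, was itself called higher in IHCs (181 against 57.9 CPM). The median of the 9 genes was -0.19 with TMM, beside -0.04 over all genes tested. In pooled cells, a smaller share of cells with a transcript and less of it per cell cannot be told apart.

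**Figure D1:**
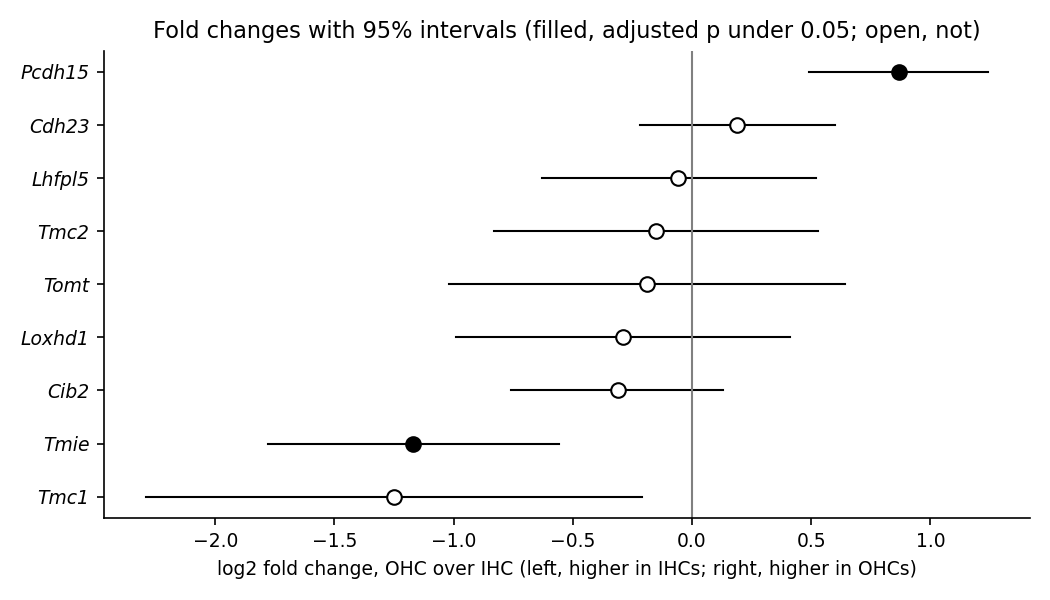
Log2 fold change of OHCs over IHCs (x axis) for the 9 tested transduction genes (y axis). Points are fitted values, lines are 95% intervals, and filled points mark an adjusted p under 0.05. Pcdh15 at 0.87 lies to the right of 0, Tmie at -1.17 lies to the left, and Tmc1 at -1.25 has the widest interval.

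Both pore genes were detected in every library. Tmc2 exceeded Tmc1 per length of annotated exon in all 12, although in IHC replicate 6 Tmc1 had the more counts. Tmc1 (chromosome 19, 20760821 to 20931566, minus strand; all gene positions are of GENCODE vM39 on GRCm39) had 33.1 ± 17.2 CPM in IHCs against 13.9 ± 9.0 CPM in OHCs. Its level ran from 9.29 CPM through a median of 34.2 to 60.9 CPM in IHCs, and from 4.4 CPM through 12.1 to 29.7 CPM in OHCs. The groups overlapped. IHC replicates 3 to 6 lay above every OHC library, while IHC replicates 1 and 2 fell among the OHC libraries. The log2 fold change was -1.25 (SE 0.5, 95% interval -2.29 to -0.21), a 2.38-fold higher level in IHCs that did not pass the test (quasi-likelihood adjusted p = 0.144). Leaving out any single library gave adjusted p-values of 0.0629 to 0.273 in the same test.

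Tmc2 (chromosome 2, 130037114 to 130106365, plus strand) had 44.2 ± 11.4 CPM in IHCs against 39.8 ± 16.5 CPM in OHCs. It ranged from 31.5 CPM through a median of 44.5 to 60.4 CPM in IHCs, and from 23.4 CPM through 37.7 to 67.4 CPM in OHCs. The ranges overlapped widely, and the library with the most Tmc2 was OHC replicate 5, the one with the least Tmc1. Its log2 fold change was -0.15 (SE 0.33, 95% interval -0.83 to 0.53, quasi-likelihood adjusted p = 0.827). The interval leaves room for a difference of either sign.

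**Figure D2:**
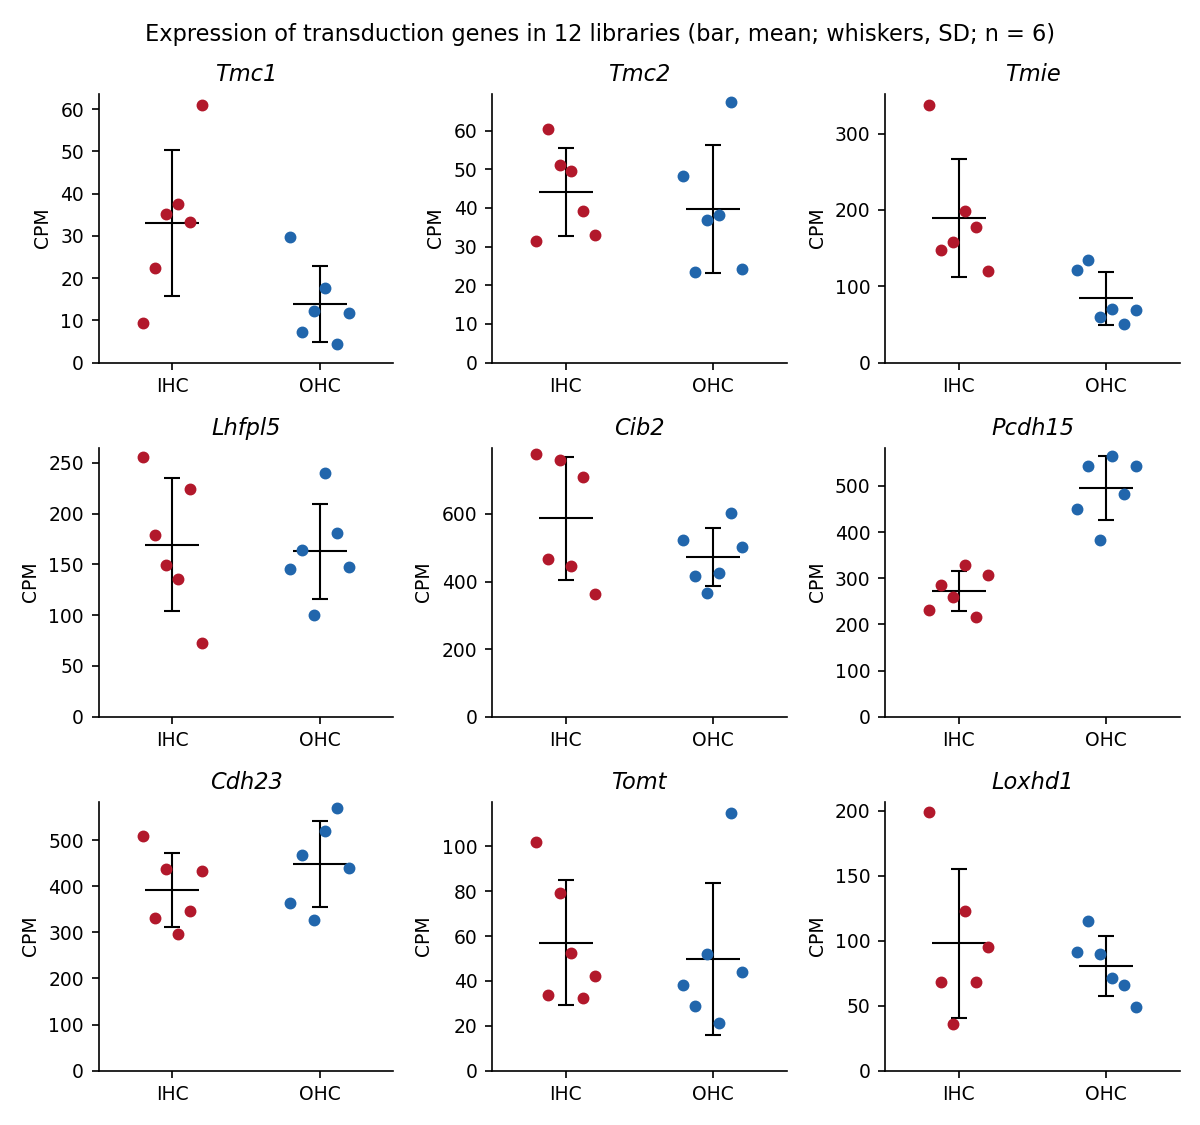
CPM (y axis, from 0) of 9 transduction genes in each IHC library (red) and OHC library (blue), with libraries ordered by replicate number from left to right, mean (bar) and SD (whiskers, n = 6). The 6 OHC libraries lie above the 6 IHC libraries for Pcdh15, at 384 to 566 CPM against 217 to 329 CPM, and the groups overlap for the other 8 genes.

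Among the accessory subunits, Tmie was lower in OHCs, while Lhfpl5 and Cib2 did not pass the test and Cib3 was detected in 2 of 12 libraries. Tmie (chromosome 9, 110694740 to 110709582, minus strand) had 189.7 ± 77.3 CPM in IHCs against 84.4 ± 34.7 CPM in OHCs. The 6 IHC libraries had 338, 147, 158, 198, 177 and 120.2 CPM from replicate 1 to 6, and the 6 OHC libraries had 121, 135, 60.2, 70.4, 50.8 and 69.1 CPM. All IHC libraries but 1 exceeded the whole OHC group, and replicate 6 fell just below OHC replicates 1 and 2. This gave a log2 fold change of -1.17 (SE 0.29, 95% interval -1.78 to -0.56), a 2.25-fold higher level in IHCs (quasi-likelihood adjusted p = 0.0201).

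The Tmie call was close to the threshold. IHC replicate 1 was its highest library in CPM but not in counts (5165, against 7870 in IHC replicate 4). Without IHC replicate 1, the log2 fold change was -0.93 (quasi-likelihood adjusted p = 0.036). The call was lost without OHC replicate 3 (log2 fold change -1.1, adjusted p = 0.0525), OHC replicate 4 (-1.13, adjusted p = 0.0513) or OHC replicate 6 (-1.12, adjusted p = 0.0517), without both IHC replicate 1 and OHC replicate 5 (-0.82, adjusted p = 0.0661), and with the scaling to 4 hair cell genes (-0.65, adjusted p = 0.141). Over all 20 alternatives the adjusted p for Tmie ran from 0.00565 to 0.141. Of the exonic bases of Tmie, 14.31% also lie in exons of Als2cl on the opposite strand, whose counts reached no more than 796 per library against at least 1524 for Tmie. The 500 genes nearest to Tmie in exon length had a median log2 fold change of -0.18, and 7.4% of them were called higher in IHCs.

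Lhfpl5 (chromosome 17, 28794485 to 28808310, plus strand), whose product ties PCDH15 to the channel, had 169 ± 65.8 CPM in IHCs against 163 ± 46.5 CPM in OHCs. It ranged from 72.2 CPM through a median of 164 to 256 CPM in IHCs, and from 99.9 CPM through 155 to 240.2 CPM in OHCs, so the OHC range lay within the IHC range. The log2 fold change was -0.06 (SE 0.27, 95% interval -0.63 to 0.52, quasi-likelihood adjusted p = 0.928). Exons of Srpk1 on the opposite strand cover 30.38% of its exonic bases, with up to 5698 counts, and the strand setting of the counting is not stated, so the level of Lhfpl5 is uncertain.

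Cib2 (chromosome 9, 54411473 to 54467527, minus strand), which encodes a calcium-binding subunit that binds the TMC proteins, had the highest level per exon length of the 10 genes in both cell types. It had 587 ± 182 CPM in IHCs against 472 ± 86.2 CPM in OHCs, with libraries from 363 CPM through a median of 587 to 776 CPM and from 366 CPM through 464 to 602 CPM. IHC replicates 1, 3 and 5 lay above all OHC libraries and IHC replicate 6 lay below them. The log2 fold change was -0.31 (SE 0.21, 95% interval -0.76 to 0.13, quasi-likelihood adjusted p = 0.42). Its relative Cib3 (chromosome 8, 72958179 to 72966840, minus strand) had 7 counts in IHC replicate 1, 26 counts in IHC replicate 6 and 0 counts in the other 10 libraries. A count of 0 allows up to 3 counts, which is a level of up to 0.0647 to 0.1 CPM in the OHC libraries, for counting error only. At this depth no difference in Cib3 between the cell types could be tested.

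The tip link genes differed from each other. Pcdh15 was enriched in OHCs without overlap between the groups, and Cdh23 did not pass the test. Pcdh15 (chromosome 10, 72935174 to 74485569, plus strand) had 272 ± 43.5 CPM in IHCs against 495 ± 69.4 CPM in OHCs. The 6 IHC libraries had 232, 285, 259, 329, 217 and 307 CPM from replicate 1 to 6, and the 6 OHC libraries had 451, 543, 384, 566, 483 and 543 CPM. The groups did not overlap, with OHCs the higher group, as was the case in this direction for 2.22% of all genes tested and in the other direction for 2.37%. This gave a log2 fold change of 0.87 (SE 0.18, 95% interval 0.49 to 1.24), a 1.82-fold higher level in OHCs (quasi-likelihood adjusted p = 0.00541). It was called in all 12 fits that left out a single library, with log2 fold changes of 0.8 to 0.93, and without both IHC replicate 1 and OHC replicate 5 it was 0.82 (adjusted p = 0.00785, and 1.8e-06 to 0.0178 over all 20 alternatives). Pcdh15 has 23.77 kb of exon, and the 500 genes nearest to it in exon length had a median log2 fold change of 0.05, with 3.8% of them called higher in OHCs.

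Cdh23 (chromosome 10, 60138527 to 60532269, minus strand) had 392 ± 80.3 CPM in IHCs against 448 ± 92.4 CPM in OHCs. It ranged from 296 CPM through a median of 390 to 508 CPM in IHCs, and from 326 CPM through 454 to 569.9 CPM in OHCs. OHC replicates 4 and 5 lay above all IHC libraries, and the remaining libraries were interleaved. For Cdh23 the log2 fold change was 0.19 (SE 0.2, 95% interval -0.22 to 0.6, quasi-likelihood adjusted p = 0.608). With library sizes set by the 4 hair cell genes it was 0.67 and passed (adjusted p = 0.0347, same test; up to 0.803 over 20 alternatives). That scaling moved the median of all genes tested from -0.04 to 0.43, so Cdh23 lay about as far above the median as before.

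The sequences before the RefSeq start sites of both tip link genes are shown because their transcripts differed in balance between the cell types. They come from the RefSeq promoter table (GRCm38.p6), and each was found once, letter for letter, in GRCm39. They run 5′ to 3′ on the strand of the gene and stop where an annotated exon begins, and capitals mark TATAAA. The window of Pcdh15 is chr10:73657449-73657689 on the plus strand and that of Cdh23 is chr10:60532270-60532519 on the minus strand, in GRCm39.
Pcdh15: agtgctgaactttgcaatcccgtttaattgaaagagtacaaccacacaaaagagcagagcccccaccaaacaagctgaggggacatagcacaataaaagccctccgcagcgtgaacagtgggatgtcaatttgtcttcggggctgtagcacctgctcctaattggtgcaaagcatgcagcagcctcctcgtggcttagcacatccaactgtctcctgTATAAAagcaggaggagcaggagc
Cdh23: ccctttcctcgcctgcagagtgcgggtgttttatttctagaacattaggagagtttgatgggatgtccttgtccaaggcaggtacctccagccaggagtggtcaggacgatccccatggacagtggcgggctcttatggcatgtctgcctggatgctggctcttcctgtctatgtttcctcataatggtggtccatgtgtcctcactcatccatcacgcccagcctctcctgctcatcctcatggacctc

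The window of Pcdh15 has 241 bases with a GC content of 50.6%, and lies 722.5 kb inside the gene as GENCODE vM39 draws it, so it belongs to a start site internal to the annotated gene. Its TATAAA begins 33 bases before the RefSeq start. The window of Cdh23 has 250 bases with a GC content of 54.4% and directly precedes the annotated gene start. It held none of the 4 motifs searched on both strands, which were the E-boxes CAGCTG (its own reverse complement) and, as the other spelling of this class of site, CAGATG, then GTTGCC (part of an X-box) and the TATA box written above. Of 32851 windows of 250 bases in the table, 13.0% held the first E-box, 14.4% the other E-box, 10.4% the X-box part and 12.4% the TATA box. For 8 of the 10 genes, 9 windows of the table were searched, of which 4 held the first E-box and 1 each held the other motifs. Those 4 lay partly or wholly in annotated exons. Exons took up all 250 bases for Tmie and Tomt, 208 for Lhfpl5 and 73 for Cib3. The Tomt window with this E-box lies 2.7 kb inside the gene. How often the other windows of the table lie in exons was not measured. Tmc2 had no entry, and no window of Loxhd1 was searched.

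Within a library the ratio of 2 genes does not depend on library size, and the ratio of Pcdh15 to Cdh23 differed between the cell types. In log2 of counts it was -0.52 ± 0.45 in IHCs and 0.16 ± 0.21 in OHCs, so that Pcdh15 counts were below Cdh23 counts in 5 of 6 IHC libraries and above them in 5 of 6 OHC libraries. The exceptions were IHC replicate 4 (0.15) and OHC replicate 5 (-0.24). The difference of 0.68, a 1.6-fold change of the ratio, had p = 0.0108 in a two-sided exact permutation test over all 924 arrangements (smallest possible p = 0.00216), or 0.0216 after Benjamini-Hochberg adjustment over the 2 ratios tested. Per length of exon, Pcdh15 made up 38.4 ± 7.28% of the tip link transcripts in IHCs and 49.7 ± 3.55% in OHCs. Without IHC replicate 1 and OHC replicate 5 the difference was 0.64 (exact permutation p = 0.0159).

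The ratio of Tmc1 to Tmc2 was lower on average in OHCs, but the difference did not pass the test. Its log2 was -0.58 ± 0.94 in IHCs and -1.67 ± 1.16 in OHCs, a difference of -1.09 (two-sided exact permutation p = 0.0996, adjusted p = 0.0996 over the 2 ratios). Per length of exon, Tmc1 made up 24.6 ± 11.9% of the Tmc1 and Tmc2 transcripts in IHCs, from 11.6% to 45.3%, and 14.1 ± 6.49% in OHCs, from 2.84% to 21.6%. Tmc1 counts were below Tmc2 counts in every library except IHC replicate 6, which had 2237 counts of Tmc1 and 1210 of Tmc2. At the other end, OHC replicate 5 had 132 counts of Tmc1 and 2021 of Tmc2. Without IHC replicate 1 the difference was -1.33 (exact permutation p = 0.0368), and without OHC replicate 5 it was -0.64 (exact permutation p = 0.201). The ratio of Cib2 to Cib3 was not tested because Cib3 had fewer than 10 counts in every library but 1.

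**Figure D3:**
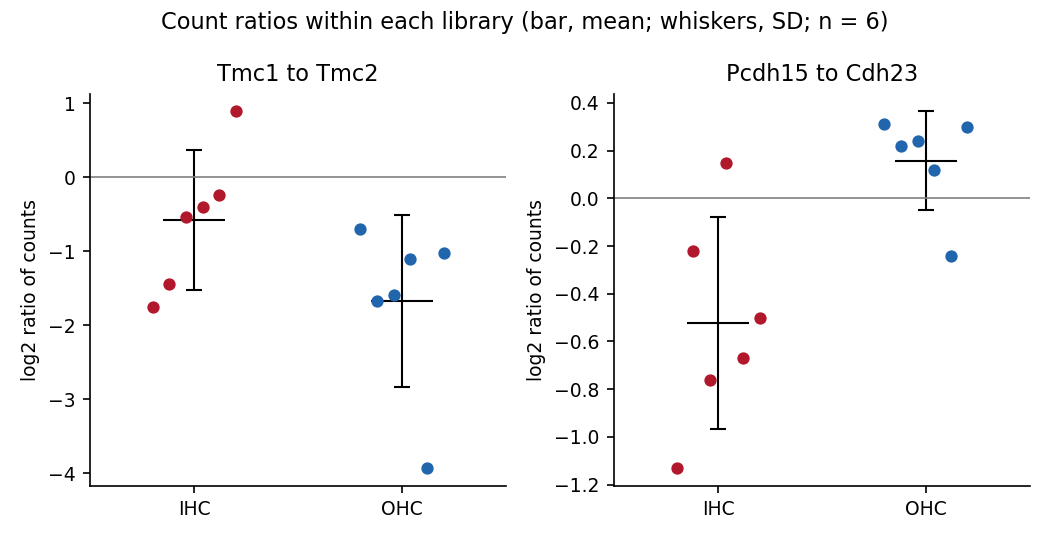
Log2 ratio of counts within each library (y axis; the axes differ in scale) of Tmc1 to Tmc2 (left) and Pcdh15 to Cdh23 (right) for 6 IHC libraries (red) and 6 OHC libraries (blue), with mean (bar) and SD (whiskers). Pcdh15 to Cdh23 lies above 0 in 5 OHC libraries and below 0 in 5 IHC libraries, and Tmc1 to Tmc2 is lowest, at -3.93, in OHC replicate 5.

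The genes for trafficking and bundle upkeep did not pass the test. Tomt (chromosome 7, 101547575 to 101555707, minus strand) had 57.1 ± 28.0 CPM in IHCs, from 32.5 CPM through a median of 47.4 to 102 CPM, and 49.9 ± 33.9 CPM in OHCs, from 21.2 CPM through 41.0 to 115 CPM. Its highest libraries were OHC replicate 5 and IHC replicate 1. The log2 fold change was -0.19 (SE 0.4, 95% interval -1.02 to 0.64, quasi-likelihood adjusted p = 0.819). Tomt shares 28.54% of its exonic bases with Anapc15 and 1.97% with Lamtor1 on the opposite strand, and these had up to 1303 and 1650 counts against at least 730 for Tomt, so its level is uncertain. Loxhd1 had 98.2 ± 57.4 CPM in IHCs, from 36.1 CPM through a median of 81.5 to 199 CPM, and 80.4 ± 23.4 CPM in OHCs, from 49.0 CPM through 80.6 to 115 CPM. The OHC range lay within the IHC range, which IHC replicate 1 extended at its upper end. For Loxhd1 the log2 fold change was -0.29 (SE 0.33, 95% interval -0.99 to 0.41, quasi-likelihood adjusted p = 0.661).

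Levels of different genes were compared per kb of annotated exon. In IHCs the order of mean level per kb was Cib2 (155 ± 48.0 CPM per kb), Lhfpl5 (46.8 ± 18.2), Tmie (39.1 ± 15.9), Cdh23 (18.6 ± 3.81), Tmc2 (13.7 ± 3.55), Pcdh15 (11.4 ± 1.83), Loxhd1 (11.0 ± 6.45), Tomt (8.22 ± 4.04), Tmc1 (4.6 ± 2.4) and Cib3 (0.0931 ± 0.149). Of the neighbours in this order, the ranges over 6 libraries were apart only for Cib2 and Lhfpl5, for Tmie and Cdh23, and for Tmc1 and Cib3. In OHCs the order was Cib2 (125 ± 22.8 CPM per kb), Lhfpl5 (45.0 ± 12.9), Cdh23 (21.3 ± 4.39), Pcdh15 (20.8 ± 2.92), Tmie (17.4 ± 7.16), Tmc2 (12.4 ± 5.13), Loxhd1 (9.04 ± 2.63), Tomt (7.19 ± 4.88), Tmc1 (1.93 ± 1.25) and Cib3 at 0 counts. There the ranges were apart only for Cib2 and Lhfpl5, for Lhfpl5 and Cdh23, and for Tmc1 and Cib3. The top pair and the last pair of the order were thus the same in both cell types, and Tmie stood above Pcdh15 in IHCs, where their ranges were apart, but not in OHCs, where their ranges overlapped. Exon lengths are unions over the isoforms of GENCODE vM39, while the reads were counted on vM27. Which isoforms these cells use was not measured here, so levels and shares per length of exon are approximate.

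**Figure D4:**
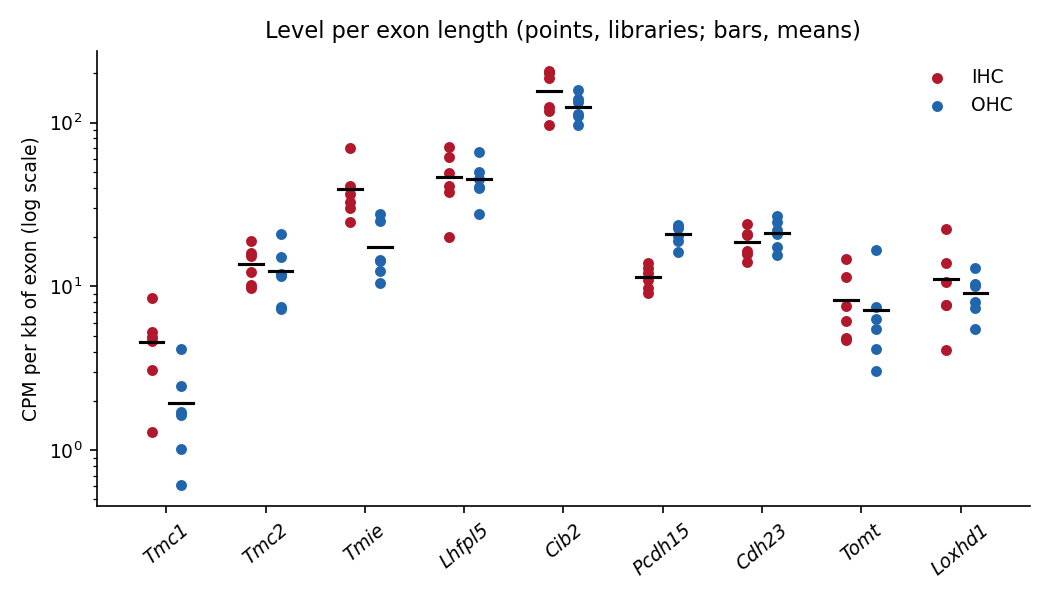
CPM per kb of exon (y axis, log scale) of 9 transduction genes in each IHC library (red) and OHC library (blue), with bars at the mean. Cib2 is at the top, at 155 and 125 CPM per kb, and Tmc1 at the bottom, at 4.6 and 1.93 CPM per kb. Cib3 is left out because 10 of its libraries had 0 counts.

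The genes also differed in how much they varied between pools of the same cell type. The coefficient of variation was 16.0% in IHCs and 14.0% in OHCs for Pcdh15, the lowest among the 9 tested genes in both cell types, and 20.5% and 20.6% for Cdh23. It was highest in IHCs for Loxhd1 (58.5%) and Tmc1 (52.1%), and in OHCs for Tomt (67.9%) and Tmc1 (64.8%). Over all genes tested the median was 62.8% in IHCs and 51.3% in OHCs. That median covers genes of all levels, down to means under 1 CPM, and genes of matched level were not compared. As deviations of log2 CPM from the cell type mean over 12 libraries, Tmc1 and Tmc2 had a Pearson r of 0.01, Pcdh15 and Cdh23 of 0.14, and the 36 pairs of the 9 genes ran from -0.57 (Tmc1 and Tomt) to 0.66 (Lhfpl5 and Cib2). Tmie and Loxhd1 had 0.62, while Tmc1 and Lhfpl5 had -0.51. These describe libraries that share a depth and a composition, and they carry no test.

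By the same measure, the genes most like each pore gene and each called gene were sought among 8094 genes with a mean of at least 10 CPM. For Tmc1 they were Tmem117 (r = 0.93), Phka1 (0.92) and Rbm18 (0.88). For Tmc2 they were Nefl (r = 0.94), Cdc5l (0.89) and Arfgef2 (0.86). For Tmie they were Zfp768 (r = 0.91), Fbxw7 (0.88) and Map7 (0.87), and for Pcdh15 they were Bivm (r = 0.91), Cfap161 (0.91) and Ccdc88a (0.9). The top of 8094 correlations over 12 libraries is high in any case, and the values are a description.

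Other genes of the hair bundle and of mechanosensation were read from a list of 20, of which 19 could be tested. Of these, 3 were higher in OHCs, 1 was higher in IHCs and 15 did not pass. Across all genes tested, 2.44% were called higher in OHCs and 3.81% higher in IHCs. The list median log2 fold change was -0.04, the same as over all genes tested, and the list was not tested as a set. Piezo2, which encodes a stretch-activated channel distinct from the TMC channel, rose from 81.0 ± 21.4 CPM in IHCs to 291 ± 55.2 CPM in OHCs without overlap (quasi-likelihood adjusted p = 3.24e-05). Adgrv1, an adhesion receptor of the ankle links at the base of the stereocilia, was at 242 ± 45.9 CPM and 416 ± 73.7 CPM, also without overlap (adjusted p = 0.0172, same test). Pkhd1l1, which encodes a protein of the stereocilia coat, was at 113 ± 32.2 CPM in IHCs against 249 ± 77.8 CPM in OHCs (adjusted p = 0.00959, same test), and 5 OHC libraries lay above all IHC libraries. Gipc3, which encodes a PDZ domain protein needed for hearing, went the other way, with 719 ± 343 CPM in IHCs against 316 ± 35.2 CPM in OHCs without overlap (adjusted p = 0.0055, same test).

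The 3 partner genes that were higher in OHCs have 17.17 kb (Piezo2), 25.0 kb (Adgrv1) and 18.66 kb (Pkhd1l1) of exon and so are long genes, as Pcdh15 is. The 500 genes nearest to each of them in exon length had median log2 fold changes of 0.05, 0.05 and 0.04. Gipc3, with 3.57 kb, had neighbours in length with a median of -0.14. Cdh23, with 21.07 kb, was not called. Of the relatives described below, Tmc4 (4.28 kb) and Cdhr1 (4.93 kb) were higher in OHCs. Lhfpl2 (11.11 kb) and Lhfpl4 (9.02 kb) were higher in IHCs. A relation of these calls to length was not tested.

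**Figure D5:**
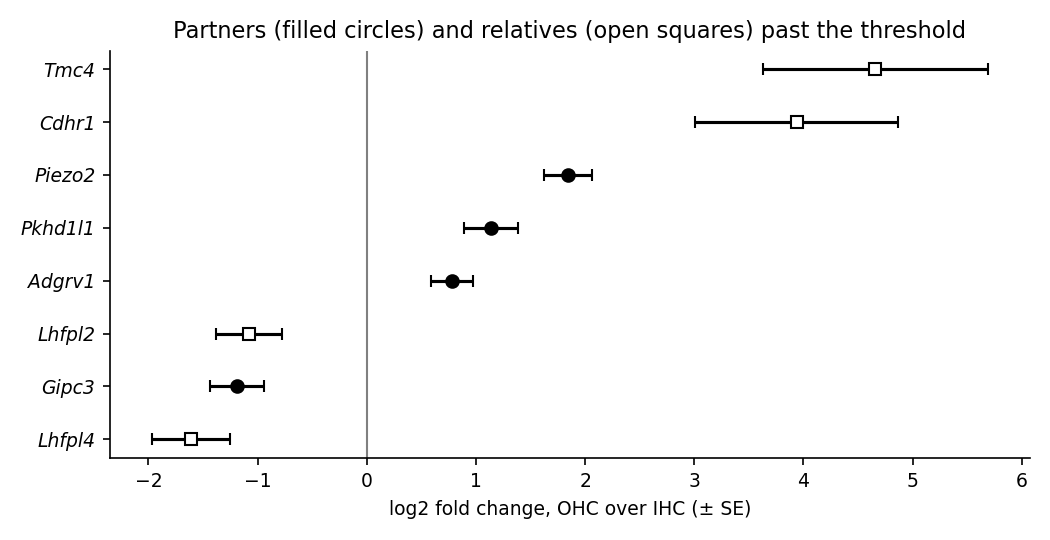
Log2 fold change of OHCs over IHCs (x axis, ± SE) for the transduction partners (filled circles) and relatives of the transduction genes (open squares) that had an adjusted p under 0.05. Piezo2, Pkhd1l1, Adgrv1, Tmc4 and Cdhr1 lie to the right of 0, and Gipc3, Lhfpl2 and Lhfpl4 to the left.

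Relatives of the transduction genes were read from a list of 18, of which 10 could be tested, with 2 higher in OHCs, 2 higher in IHCs and 6 not called. Of all genes tested, 6.26% were called in either direction. The median log2 fold change of these relatives was -0.5, and the list was not tested as a set. Tmc4, a TMC family member outside the hair cell channel, was at 0.612 ± 0.708 CPM in IHCs against 15.6 ± 5.43 CPM in OHCs without overlap (quasi-likelihood adjusted p = 0.00925). Cdhr1, a cadherin relative known from photoreceptors, was at 0.727 ± 0.766 CPM in IHCs against 11.2 ± 6.89 CPM in OHCs, again without overlap (adjusted p = 0.0138, same test). Lhfpl4, known for its place in inhibitory synapses, was at 141 ± 89.9 CPM in IHCs against 46.3 ± 14.1 CPM in OHCs (adjusted p = 0.00968, same test). Lhfpl2 was at 128 ± 43.3 CPM and 60.5 ± 25.4 CPM (adjusted p = 0.034, same test). These paralogues of Lhfpl5 were lower in OHCs, while Lhfpl5 itself did not pass the test, and the difference between them was not tested.

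Tmc7, the relative of Tmc1 and Tmc2 with the most transcripts, was at 42.6 ± 16.3 CPM in IHCs against 19.5 ± 11.2 CPM in OHCs (quasi-likelihood adjusted p = 0.122), with 4 IHC libraries above all OHC libraries. Cib1 was at 16.9 ± 6.59 CPM and 10.1 ± 8.14 CPM (adjusted p = 0.444, same test). Tmc8 and Cdhr5 had 0 counts in all 12 libraries. Tmc3, Cib4, Lhfpl1 and Cdhr2 had 0 counts in all OHC libraries and means of only 0.0051, 0.0327, 0.177 and 0.194 CPM in IHCs.

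Some markers of other cells differed between IHCs and OHCs, in both directions, and others did not. Of 7 supporting cell markers, 2 (Sox2, Gjb2) were higher in IHCs and 5 were not called. Of those 5, Lfng, Gjb6 and Sparcl1 had the higher mean in IHCs. Hes5 (8.08 CPM in IHCs against 20.2 CPM in OHCs) and Cdkn1b (50.9 against 51.6 CPM) had the higher mean in OHCs. The list summed to 320.1 to 719 CPM in IHC libraries and 86.6 to 262 CPM in OHC libraries. Gjb2, with 216 against 30.3 CPM, was its largest part in IHCs. Of 5 greater epithelial ridge markers 2 could be tested. Tecta was higher in IHCs (772 against 219.7 CPM), and Otoa was not called (6.38 CPM in IHCs against 9.7 CPM in OHCs). Epyc, Crabp1 and Fst were not tested, with mean levels of at most 2.94, 0.53 and 0.699 CPM. The sums of 578 to 1094 CPM in IHCs and 71.8 to 417 CPM in OHCs were therefore mostly Tecta. Of 4 spiral ganglion neuron markers the 2 tested (Nefm, Ntrk3) were higher in IHCs, while Prph and Gap43 had mean levels of at most 0.0306 and 0.408 CPM. Their sums of 517 to 1190.2 CPM in IHCs and 127 to 304 CPM in OHCs were mostly Nefm (763 against 207 CPM). Ntrk3 had mean levels of 5.67 CPM in IHCs and 0.167 CPM in OHCs. Of 5 endothelium markers the 4 tested were higher in OHCs, with sums of 0 to 3.15 CPM and 8.99 to 152 CPM, highest in OHC replicate 3. Mesenchyme markers (4 of 6 tested) and glia markers (3 of 4 tested) gave no calls, with sums of 8.85 to 35.4 CPM and 14.3 to 65.3 CPM in IHCs beside 2.13 to 14.3 CPM and 5.71 to 26.3 CPM in OHCs. Erythroid markers summed to at most 3.2 CPM and macrophage markers to at most 1.83 CPM in any library, and none could be tested. The part of these other cells in the levels of Tmie and Pcdh15 was not tested.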

How the data were processed

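Ribosome-depleted RNA of sorted IHC and OHC pools was amplified, and 12 libraries were sequenced with paired reads. For each library the authors deposited counts per gene without normalization, with 55416 genes and 5 HTSeq summary lines, and these summary lines were left out. By the methods and the submitters' processing notes, reads were handled with Trimmomatic, STAR (2 passes) and HTSeq (intersection-nonempty mode) on GRCm39 with GENCODE vM27. Versions and the strand setting are not given in the sources used here.

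Counts were normalised by TMM and filtered with filterByExpr (minimum count 10, minimum total count 15), and the cell types were compared with the quasi-likelihood test of edgeR 4.0.16 in R 4.3.3 over 13269 genes, with Benjamini-Hochberg adjustment and a threshold of 0.05. Intervals are 95% intervals. Count ratios within libraries (0.5 counts added) were compared with exact permutation tests in Python 3.11.15 with numpy 2.4.6. Correlations used log2 CPM with a prior count of 2. Exon unions and positions are those of GENCODE vM39, which held 98.8% of the gene identifiers. The members, the lists of partners, relatives and markers, and the tests were chosen with earlier results of these data known. All 10 members are named, as are partners and relatives past the threshold and relatives with a mean of at least 10 CPM, except 1 that is not reported here. Alternatives were RLE factors, DESeq2 1.42.0, edgeR's exact test, no filter, at least 10 counts in every library, scaling to 4 hair cell genes, a replicate block, 2 counts added in ratios, and each library left out. Leaving out IHC replicate 1 and OHC replicate 5 together was added after seeing the data.

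Counts on genes ran from 29564827 to 44017309 per library, and reads carry no molecular identifiers, so that floors cover counting error only. In counts simulated for the 13269 genes of this comparison, with 200 changed 4-fold, the quasi-likelihood test recovered 42.5% with 4 false calls.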

Additional observations from a re-analysis of the deposited data

Results flagged for a closer look

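In 4 of 24 groups of 6 libraries, 1 library lay far from the other 5 by Dixon's 95% criterion, where chance picks out about 1 in 20. Tmie had 338 CPM in IHC replicate 1, and the other IHC libraries had 120.2 to 198 CPM. In counts before scaling, that library had 5165 for Tmie, within the 4411 to 7870 of the other IHC libraries. Its TMM factor was 0.4863, the lowest of all libraries. Tomt had 115 CPM in OHC replicate 5, against 21.2 to 52.2 CPM in the other OHC libraries. In the same library the log2 ratio of Tmc1 to Tmc2 was -3.93 (the others, -1.67 to -0.7), and that of Pcdh15 to Cdh23 was -0.238 (the others, 0.12 to 0.31).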

How the results depend on the processing

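Pcdh15 was called higher in OHCs under all 20 alternatives (log2 fold change 0.8 to 1.29), and Tmie higher in IHCs under 15 of 20 (-1.37 to -0.65). The number of members higher in IHCs was 0 to 1 with each library left out, and 0 without both IHC replicate 1 and OHC replicate 5. The counts of genes higher in IHCs and OHCs were 506 and 324, and 1339 and 1590 with DESeq2 (more genes tested). They were 893 and 918 without a filter (27488 genes tested), and 751 and 519 with the exact test. They were 369 to 551 and 225 to 402 with each library left out. Scaling to 4 hair cell genes moved the median of all genes tested from -0.04 to 0.43, and with it Tmie to -0.65 (adjusted p = 0.141 by the quasi-likelihood test). Under that scaling the signs turned for Tmc2 (0.27), Lhfpl5 (0.47), Cib2 (0.21), Tomt (0.32) and Loxhd1 (0.22). Relative to the shifted median, only Lhfpl5 of these 5 lay above it. Signs also turned without IHC replicate 1 for Lhfpl5 (0.09), Tomt (0.04) and Loxhd1 (0.04), without IHC replicate 5 for Lhfpl5 (0.01), without OHC replicate 3 for Lhfpl5 (0.03), and without IHC replicate 1 and OHC replicate 5 for Lhfpl5 (0.06) and Loxhd1 (0.09). With each library left out, the values ran from -0.23 to 0.09 for Lhfpl5, -0.63 to 0.04 for Tomt and -0.48 to 0.04 for Loxhd1. None of these genes was called under any alternative. The cause was not tested.

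The ratio of Tmc1 to Tmc2 differed by -1.33 to -0.64 with each library left out (exact permutation p = 0.0368 to 0.212), and that of Pcdh15 to Cdh23 by 0.56 to 0.81 (exact permutation p = 0.00649 to 0.0216). Same-numbered libraries showed no pairing in expression. Deviations from the cell type means of same-numbered libraries correlated by -0.03 to 0.02, and 1 of 12 libraries correlated best with its own number. In pools that vary this much, the check cannot exclude that same-numbered libraries came from the same pups, which is not known. With the replicate block the Pcdh15 to Cdh23 difference of 0.68 had an exact permutation p = 0.0625, and the block changed no other call on the members.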
